A study of Sus scrofa with 85 samples.

Results

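Biopsies of the infarcted region taken 1–3 h after the start of myocardial infarction were compared with biopsies of the same region taken on day 14 in the same 3 swine. The comparison rests on 16 of the 85 RNA-seq libraries of the study, 9 labelled apical 1–3 h and 7 labelled apical Day 14. They were kept from 11 and 9 sequenced libraries because their total count was at least 1000000 and their 10 most counted genes held between 7 and 60% of the counts. Swine 1640, 1644 and 5385 gave 3 libraries each at 1–3 h, and on day 14 they gave 2, 2 and 3. No value of a single gene entered the choice.

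All animals were female mixed breed Yorkshire-Swedish farm pigs, and all had a balloon inflated in the distal left anterior descending coronary artery for 60 min, followed by reperfusion. Micro-endomyocardial biopsies (micro-EMB) are fragments cut from inside the left ventricle by a thin catheter-borne device. Apical biopsies were aimed at the infarcted region and lateral ones at muscle without infarction, and the necrotic area found at post-mortem was small, so an apical biopsy need not have come from necrotic muscle. The 1–3 h biopsies belonged to the anaesthetised session in which baseline biopsies, occlusion and reperfusion took place, and the day 14 biopsies to a later session with its own sedation and anaesthesia. No animal went through the same procedure without occlusion. Time after infarction therefore cannot be told apart from length of anaesthesia, time of day, drugs or repeated biopsy. Amiodarone was given at the infarction and buprenorphine and meloxicam afterwards, while tiletamine, zolazepam and medetomidine were given before every session.

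Values are counts of reads per gene, given per 1000000 counted reads after scaling of the libraries to each other (CPM), and total counts of the 16 libraries ranged from 5886133 to 14434740. Summed levels of cell type markers are given without scaling beyond the library total. Cardiomyocyte markers were present in 14 of the 16 libraries, with summed levels from 3306 to 18860.2 CPM. The other two, 1–3 h replicate 6 and day 14 replicate 5, both of swine 1644, held 19.1 and 172.5 CPM of these markers and 83129 and 62894 CPM of fibroblast markers, and are called fibrous libraries here. They stayed in the comparison, and results that depend on them are given with and without the fibrous libraries. Some of the other 14 libraries were mixed. Fibroblast markers reached 29422 CPM in day 14 replicate 8 and 21532.7 CPM in 1–3 h replicate 11. In 1–3 h replicate 3 they summed to 10996.4 CPM, beside 3306 CPM of cardiomyocyte markers. The 1–3 h replicates 2 and 7 and the day 14 replicate 6 stood apart in another way, with more than 18000 genes at 1 CPM or more. Summed red cell markers lay between 3348 and 5897 CPM in swine 5385 at both timepoints and between 7.28 and 93.9 CPM in the other two swine.

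When heart muscle loses its blood supply and is then reperfused, surviving cells switch on immediate early transcription factors within minutes to hours, and these in turn start programmes of inflammation, repair and growth. Falling oxygen stabilises HIF1A and raises genes of glucose uptake and glycolysis, and damaged proteins and oxygen radicals call up chaperones and antioxidant enzymes. The early response is brief, since phosphatases that stop the signalling and factors that degrade short-lived mRNAs are induced along with it. In the following weeks dead muscle is cleared and replaced by collagen, and the muscle that is left returns toward its usual programme.

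Genes called higher at 1–3 h than on day 14 in the infarcted region included early response, chaperone, cytokine and hypoxia genes such as MYC, HSP70.2, CCL2 and ANGPTL4, and genes called lower included MXD4, IGF1 and the clock repressors NR1D1 and NR1D2. The edgeR quasi-likelihood test called 931 of 17929 genes at an adjusted p of 0.05 or less. Of these, 557 were higher at 1–3 h, which is 3.11% of the genes tested, and 374 were lower, which is 2.09%. The called higher genes had a median log2 fold change of 1.47 and the called lower genes of −1.03, against 0.09 over all genes tested. A log2 fold change above 2 was reached by 128 called genes, and a value below −2 by 11. All 1–3 h libraries lay above all day 14 libraries for 35 genes (0.195% of those tested) and below them for 49 genes (0.273%).

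The calls depended on swine 5385. Leaving out this animal removed its 6 libraries of the contrast and also its baseline, 0–1 h and day 2 libraries from the fit. The edgeR test then called 0 genes among 6 libraries of 1–3 h and 4 of day 14, with 1554 genes at an unadjusted p under 0.05. On the same libraries DESeq2 called 174 and limma-voom 0. In the edgeR fit 556 of the 557 called higher genes kept a positive fold change, with a median of 1.24. All 374 of the 374 called lower genes kept a negative one, with a median of −0.84. The libraries that remained had also taken part in choosing the genes, so the shares are a description. Without swine 1640 the count was 607 and without swine 1644 it was 356. Biopsies of an animal are not independent of each other: with the counts summed per swine and timepoint, which leaves 3 pairs, 37 genes were called, 35 higher and 2 lower.

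**Figure D1:**
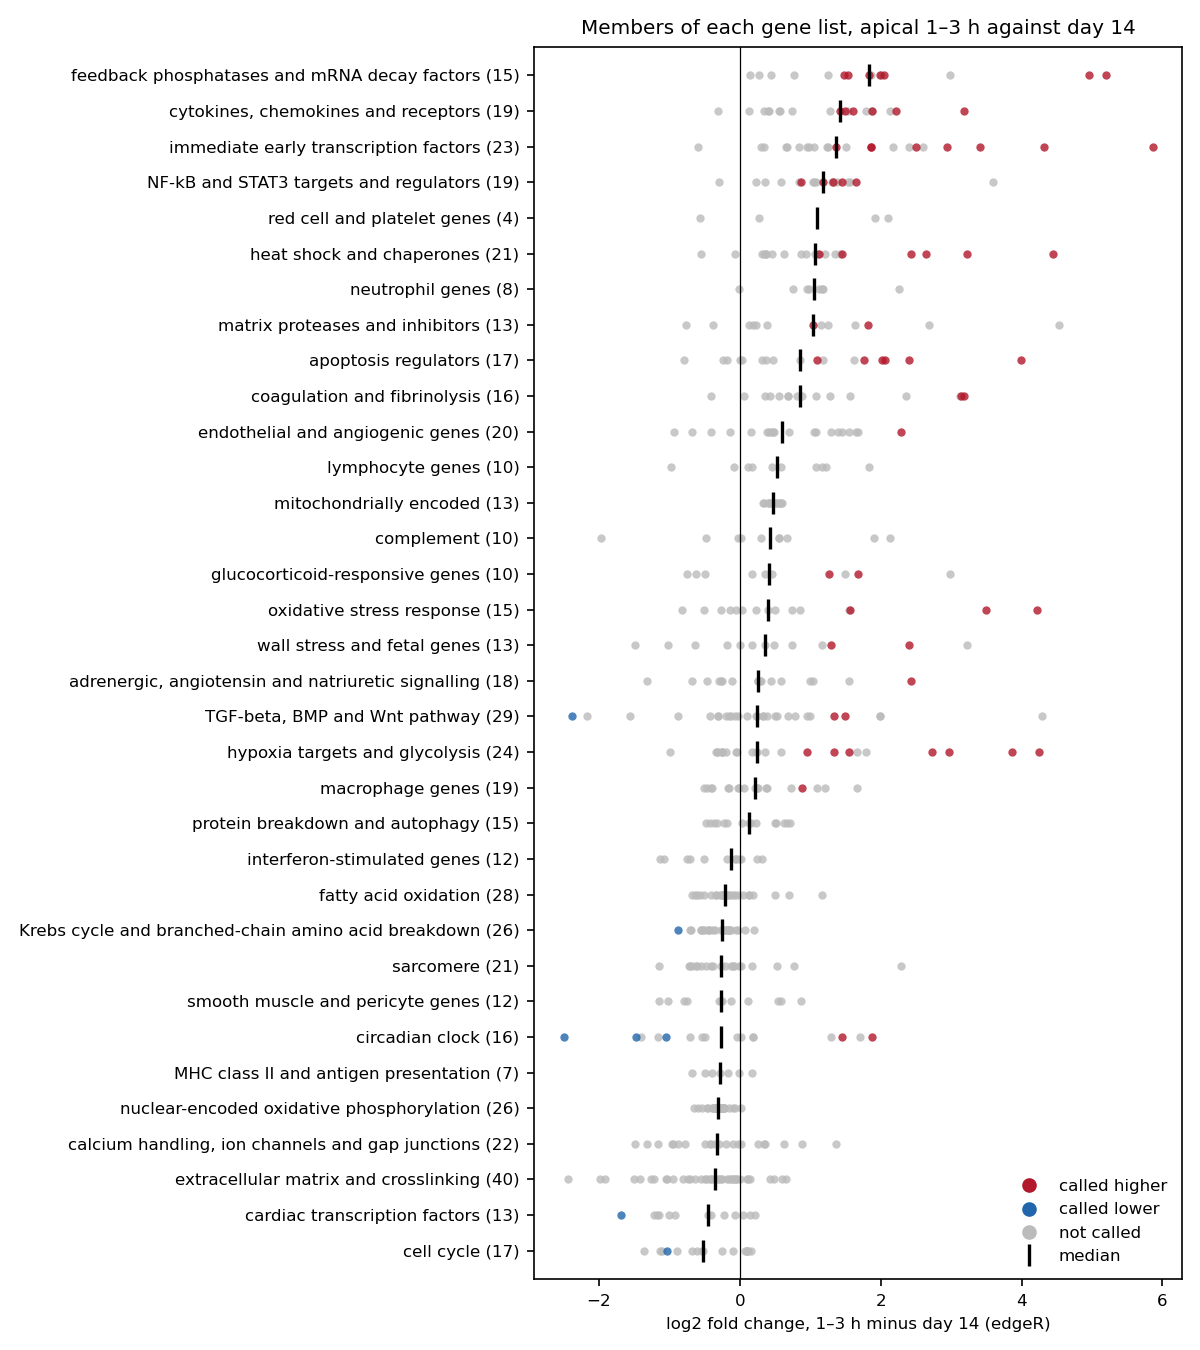
Each dot is the log2 fold change (1–3 h minus day 14, horizontal axis) of a tested member of the gene list named on the vertical axis, with the number of members tested in brackets, red for called higher, blue for called lower and grey for not called. Black bars are list medians, which run from −0.53 for cell cycle genes to 1.83 for feedback phosphatases and mRNA decay factors.

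The immediate early transcription factors are the first genes a stressed or growth-stimulated cell transcribes. Of 23 tested members 8 rose and 0 fell, and the median log2 fold change of the list was 1.36. MYC (ENSSSCG00000005965, chr4:12455141-12460360), which drives growth and ribosome production, lay between 25.3 and 372 CPM at 1–3 h (median 163.96) and between 4.88 and 100.5 CPM on day 14 (median 7.38). The ranges overlapped through day 14 replicate 5, the fibrous library, which held 100.5 CPM while the other day 14 libraries stayed at 9.92 CPM or less. The log2 fold change of MYC was 2.94 ± 0.76 (SE, adjusted p = 0.022), a call that was lost without day 14 replicate 9.

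ARC (ENSSSCG00000038965, chr4:1517986-1521403), an activity-induced gene best known from neurons, lay between 0.474 and 200.7 CPM at 1–3 h (median 50.3) and between 0 and 5.55 CPM on day 14 (median 0.553), and its log2 fold change was 5.86 ± 1.46 (SE, adjusted p = 0.019). Its lowest 1–3 h library was replicate 7 of swine 1640, and 8 of the 9 libraries exceeded every day 14 library. By limma-voom ARC was not called. FOSL1, a partner of JUN in the AP-1 factor, had medians of 54.9 and 0.382 CPM and a fold change of 4.32 ± 1.13 (SE, adjusted p = 0.025), which was lost without day 14 replicate 2, 8 or 9. KLF6, a zinc finger factor induced by injury, rose by 1.86 ± 0.39 (SE, adjusted p = 0.0077). MAFF, CSRNP1, IER5 and KLF10 rose as well, with log2 fold changes from 1.36 to 3.41.

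The classical members FOS, EGR1 and ATF3 did not pass the test. FOS lay between 37.5 and 329 CPM at 1–3 h (median 59.0) and between 1.58 and 235 CPM on day 14 (median 10.3), EGR1 between 75.8 and 705 CPM at 1–3 h (median 301) and between 16.4 and 533 CPM on day 14 (median 26.7), and ATF3, a stress-induced repressor, between 38.3 and 1017 CPM at 1–3 h (median 196.96) and between 9.05 and 118.8 CPM on day 14 (median 58.3). Their log2 fold changes were 0.65 ± 0.79, 1.5 ± 0.71 and 2.40 ± 0.75, with adjusted p of 0.723, 0.237 and 0.057. The number of list members called depended on single libraries, since 2 were called without day 14 replicate 9, 4 without day 14 replicate 4 or without day 14 replicate 8, 5 without day 14 replicate 2 and 15 without day 14 replicate 5. Without all 5 fibrous libraries of the 29 in the fit it was 17, and the list median was 2.23.

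Feedback genes switch early signalling off again. Among 15 feedback phosphatases and mRNA decay factors 7 rose and 0 fell, with a median of 1.83 and all 15 members above 0. DUSP2, which inactivates MAP kinases in the nucleus, lay between 1.35 and 75.5 CPM at 1–3 h (median 16.4) and between 0.278 and 1.45 CPM on day 14 (median 0.891). At 1–3 h 8 of the 9 libraries exceeded the highest day 14 library, and the log2 fold change was 5.20 ± 1.01 (SE, adjusted p = 0.0048). DUSP5, an ERK phosphatase, lay between 11.103 and 436 CPM at 1–3 h (median 95.9) and between 0.992 and 16.8 CPM on day 14 (median 2.71), with a fold change of 4.95 ± 1.01 (SE, adjusted p = 0.0065). SPRY2 and SPRED1, inhibitors of receptor tyrosine kinase signalling, rose by 1.99 ± 0.39 and 1.83 ± 0.40 (adjusted p = 0.0048 and 0.0086). DUSP1, DUSP6 and SPRY4 also passed, with fold changes from 1.48 to 2.05. Of this list between 5 and 11 were called on leaving out a single library, the 11 without day 14 replicate 5, and 2 with counts summed per swine.

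**Figure D2:**
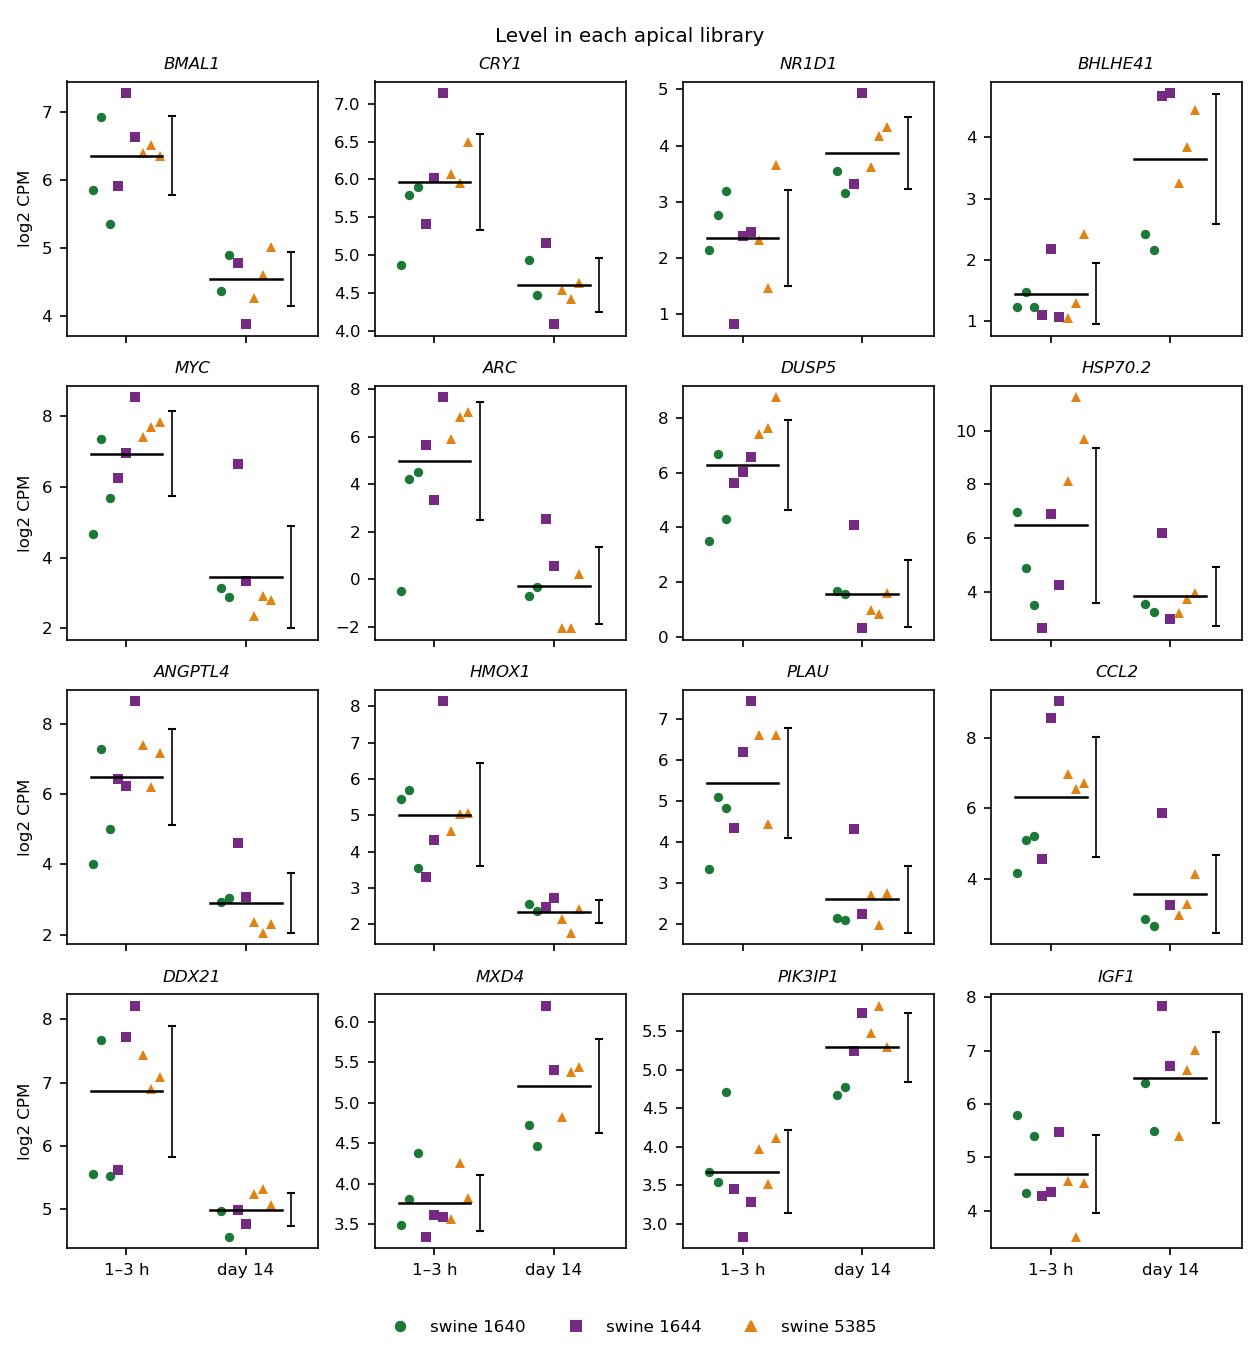
Level of 16 genes (vertical axes, log2 CPM) in the 9 libraries of 1–3 h and the 7 of day 14, with colour and symbol for the swine, a line at the group mean and a bar of 1 SD beside it. BMAL1, HMOX1, DDX21 and MXD4 have no overlap between the timepoints, and for MYC, ARC and CCL2 the highest day 14 point is the fibrous library of swine 1644.

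Cytokines recruit white cells and tell heart cells to survive or remodel. In the list of cytokines, chemokines and receptors 6 of 19 tested members rose and 0 fell, with a median of 1.42. CCL2, the chemokine that attracts monocytes, lay between 17.7 and 522 CPM at 1–3 h (median 92.4) and between 6.13 and 57.6 CPM on day 14 (median 9.30), a log2 fold change of 3.19 ± 0.73 (SE, adjusted p = 0.011). The only day 14 library above the lowest 1–3 h library was replicate 5, at 57.6 CPM. CXCL2, which attracts neutrophils, had medians of 68.2 and 25.1 CPM and rose by 1.5 ± 0.34 (SE, adjusted p = 0.01).

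Oncostatin M, a cytokine released by macrophages and neutrophils, signals through IL6ST paired with OSMR or LIFR. IL6ST had a log2 fold change of 0.35 ± 0.19 (SE, adjusted p = 0.343), while the partner chains were both called. OSMR (ENSSSCG00000016851, chr16:24041312-24101842) lay between 70.1 and 330.3 CPM at 1–3 h (median 172.5) and between 19.8 and 143.7 CPM on day 14 (median 24.3), with 143.7 CPM in the fibrous day 14 library, and rose by 2.22 ± 0.49 (SE, adjusted p = 0.0096). LIFR, the receptor chain shared with leukaemia inhibitory factor, lay between 209.5 and 833 CPM at 1–3 h (median 344) and between 92.5 and 200.6 CPM on day 14 (median 143.4) and rose by 1.42 ± 0.27 (SE, adjusted p = 0.004). Its groups did not overlap. IL4R and CSF1, the growth factor of macrophages, were the other called members, at 1.61 ± 0.46 and 1.87 ± 0.48 (adjusted p = 0.038 and 0.021).

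Among 19 targets and regulators of NF-kB and STAT3, 5 rose and 0 fell, with a median of 1.18. STAT3, the factor that carries the signal of the oncostatin M receptor into the nucleus, lay between 200.8 and 602 CPM at 1–3 h (median 434) and between 78.2 and 441 CPM on day 14 (median 109.2). Outside the fibrous day 14 library (441 CPM), no day 14 library exceeded 124.3 CPM, and the log2 fold change was 1.46 ± 0.34 (SE, adjusted p = 0.013). NFKBIA, the inhibitor that NF-kB induces against itself, rose by 1.18 ± 0.26 (SE, adjusted p = 0.0096), and the NF-kB subunits RELB and NFKB1 by 1.65 ± 0.37 and 0.87 ± 0.22 (adjusted p = 0.01 and 0.021). Of this list 4 were called without day 14 replicate 9, 8 without 1–3 h replicate 7 or without 1–3 h replicate 11 and 12 without day 14 replicate 5.

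Summed neutrophil markers, of which 4 of 6 had an identifier, lay between 1.93 and 52.3 CPM at 1–3 h (median 12.2) and between 1.16 and 9.98 CPM on day 14 (median 3.50), against 494 CPM or more in the blood libraries of the same timepoints. CSF3R, the receptor for the neutrophil growth factor G-CSF, had medians of 4.60 and 1.45 CPM and a log2 fold change of 2.26 ± 0.72 (SE, adjusted p = 0.063). In bulk biopsies more cells of a type and more RNA per cell cannot be told apart, and the part of neutrophils in the cytokine results was not tested. Of 8 tested neutrophil genes 0 passed the edgeR test, 1 had an unadjusted p under 0.05 and 1 passed by DESeq2, and of 19 macrophage genes only MERTK, a receptor for taking up dying cells, rose, by 0.88 ± 0.26 (SE, adjusted p = 0.041), a call that was lost in 8 of the 16 fits without a single library.

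Clotting and fibrinolysis genes act where vessels are injured, and 2 of 16 members rose while 0 fell (median 0.85). The count was 4 without day 14 replicate 5 and 1 in 11 of the other 15 fits without a single library. PLAU (ENSSSCG00000010312, chr14:76629313-76635173), the urokinase that activates plasmin, lay between 9.82 and 171.1 CPM at 1–3 h (median 34.0) and between 3.69 and 19.8 CPM on day 14 (median 4.46), and 8 of the 9 libraries of 1–3 h lay above the highest day 14 library. The log2 fold change was 3.14 ± 0.56 (SE, adjusted p = 0.0034). SERPINB2, an inhibitor of urokinase, lay between 6.52 and 945 CPM at 1–3 h (median 466.3) and between 11.11 and 67.2 CPM on day 14 (median 48.7) and rose by 3.19 ± 0.92 (SE, adjusted p = 0.04), a call that was lost in 12 of the 16 fits without a single library and by limma-voom. Its lowest library at each timepoint was the fibrous one. THBS1, a matrix glycoprotein released by platelets and stressed vessels, was at medians of 1073 and 124.7 CPM and 2.37 ± 0.83 (adjusted p = 0.092), and with counts summed per swine it was called (adjusted p = 0.042).

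Genes induced by low oxygen shift fuel use toward glucose. Of 24 hypoxia targets and glycolysis genes 7 rose and 0 fell, with a median of 0.24, and 4 were called without day 14 replicate 9. Fold changes were above 0 for 14 members and below 0 for 10. PGK1, LDHA, PDK1 and GAPDH were not called, at log2 fold changes of 0.36, 0.23, −0.05 and −0.26. ANGPTL4 (ENSSSCG00000013599, chr2:70905767-70912892), an inhibitor of lipoprotein lipase, lay between 15.8 and 395 CPM at 1–3 h (median 86.6) and between 3.94 and 24.1 CPM on day 14 (median 7.41). The day 14 range overlapped only through the fibrous library (24.1 CPM), and the log2 fold change was 3.86 ± 0.71 (SE, adjusted p = 0.0034). HK2, the insulin-regulated hexokinase, lay between 44.3 and 614 CPM at 1–3 h (median 74.2) and between 5.73 and 45.7 CPM on day 14 (median 14.3) and rose by 2.97 ± 0.60 (SE, adjusted p = 0.0064).

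PDK4 (ENSSSCG00000015334, chr9:75246956-75260134), which blocks entry of pyruvate into the Krebs cycle, was named after its values had been seen. It lay between 2.17 and 2615 CPM at 1–3 h (median 806) and between 0 and 102.6 CPM on day 14 (median 25.6), and the 2 fibrous libraries held 2.17 and 0 CPM. In the libraries with cardiomyocyte markers the 1–3 h levels started at 136.9 CPM and the day 14 levels ended at 102.6 CPM, without overlap. The log2 fold change was 4.25 ± 1.12 (SE, adjusted p = 0.025), and 4.17 (adjusted p = 0.0026) without the fibrous libraries. HIF1A itself rose by 0.95 ± 0.20 (SE, adjusted p = 0.007), ENO1, a glycolytic enzyme, by 1.34 ± 0.34 (SE, adjusted p = 0.02), and VEGFA and ADM, secreted factors that act on vessels, by 1.55 ± 0.44 and 2.73 ± 0.72 (adjusted p = 0.035 and 0.025).

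PLIN2, UPP1, STC1 and ADORA2B were named after their values had been seen. PLIN2, which coats lipid droplets, lay between 12.9 and 449 CPM at 1–3 h (median 116.98) and between 11.07 and 16.9 CPM on day 14 (median 11.98), with 8 of the 9 libraries of 1–3 h above every day 14 library and a log2 fold change of 3.26 ± 0.64 (SE, adjusted p = 0.0053). UPP1, a uridine phosphorylase, lay between 3.00 and 15.7 CPM at 1–3 h (median 7.57) and between 0.132 and 2.96 CPM on day 14 (median 1.39), without overlap, and rose by 2.93 ± 0.67 (SE, adjusted p = 0.011). STC1, a secreted glycoprotein, rose by 3.88 ± 0.91 (SE, adjusted p = 0.013), and ADORA2B, an adenosine receptor, by 2.56 ± 0.59 (SE, adjusted p = 0.011).

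Chaperones refold damaged proteins, and in the heat shock list 6 of 21 members rose and 0 fell, with a median of 1.07. HSP70.2 (ENSSSCG00000029160, chr7:23925929-23927854), an inducible HSP70, held 279, 2432 and 833 CPM in the 1–3 h libraries of swine 5385 and between 5.91 and 123.3 CPM in those of the other two swine. On day 14 it lay between 7.56 and 72.9 CPM (median 11.2), the fibrous library being the highest. The log2 fold change over all libraries was 4.45 ± 1.00 (SE, adjusted p = 0.01), and the differences of mean log2 CPM within swine 1640, 1644 and 5385 were 1.74, 0.01 and 6.06. By limma-voom HSP70.2 was not called. Near-identical copies of HSP70 genes can share reads, so the split of counts among them is uncertain.

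The same animal held the highest levels of the cochaperones. BAG3, which sends damaged filaments of muscle to breakdown, lay between 112.99 and 1879.6 CPM at 1–3 h (median 285) and between 53.0 and 207.8 CPM on day 14 (median 71.4) and rose by 2.43 ± 0.55 (SE, adjusted p = 0.01). HSPH1, an exchange factor of HSP70, lay between 21.2 and 1557 CPM at 1–3 h (median 112.8) and between 10.4 and 139.7 CPM on day 14 (median 18.6) and rose by 3.22 ± 0.82 (SE, adjusted p = 0.021), and with swine as a block its adjusted p was 0.055. The HSPH1 call was also lost without 1–3 h replicate 9 or day 14 replicate 9. DNAJB1, the HSP40 partner of HSP70, had medians of 28.9 and 19.0 CPM but 747 CPM in 1–3 h replicate 9 of swine 5385. Its log2 fold change of 2.64 ± 0.70 (SE, adjusted p = 0.026) did not hold with the block (adjusted p = 0.092), nor did it appear within swine 1640 and 1644, at −0.07 and −0.08. CHORDC1, an HSP90 cochaperone, and HSPA4 rose by 1.44 ± 0.35 and 1.12 ± 0.31 (adjusted p = 0.017 and 0.035). Of the heat shock list 3 were called without 1–3 h replicate 9 or without day 14 replicate 9. With only the 1–3 h and day 14 libraries 2 were called, and CHORDC1 and HSPH1 were lost.

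Heat shock genes are switched on by HSF1, a factor that binds repeats of GAA in alternating orientation. The letters GAANNTTC or TTCNNGAA, both palindromic and so read on both strands at once, were searched in the 250 bases before the start of each gene (RefSeq, Sscrofa11.1). They occurred in 10.5% of 19505 windows of protein-coding genes and in 8 of 20 windows of the heat shock list (40%). Among the 6 called members of the list 2 held them, CHORDC1 and HSPA4. Over all genes the share was 11.2% of the 465 windows of called higher genes and 12.3% of the 293 windows of called lower genes. The windows of CHORDC1 (chr9:23208593-23208842, minus strand), which rose, and of HSPA8 (chr9:49986761-49987010, minus strand), the constitutive HSP70, which had a log2 fold change of 1.07 ± 0.40 (SE, adjusted p = 0.12), are shown because each holds a run of overlapping matches. The window of HSPD1, which was not called (log2 fold change 0.87), also held overlapping matches and is not shown. The windows shown are written 5′ to 3′ on the strand of the gene, with the matches in capitals and the gene start following the last base.
CHORDC1: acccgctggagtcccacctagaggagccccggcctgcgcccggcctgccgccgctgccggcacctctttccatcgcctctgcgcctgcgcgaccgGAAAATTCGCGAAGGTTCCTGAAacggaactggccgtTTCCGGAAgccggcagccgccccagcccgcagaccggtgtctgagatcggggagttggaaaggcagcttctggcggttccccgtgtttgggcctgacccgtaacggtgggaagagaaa
HSPA8: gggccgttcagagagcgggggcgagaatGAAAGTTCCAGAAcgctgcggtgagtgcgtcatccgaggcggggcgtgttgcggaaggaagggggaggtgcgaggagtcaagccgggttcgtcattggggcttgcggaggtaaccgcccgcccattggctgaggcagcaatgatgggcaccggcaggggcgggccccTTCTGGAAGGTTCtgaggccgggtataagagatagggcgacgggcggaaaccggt
The windows of HSP70.2, HSPH1, BAG3 and DNAJB1 held neither word. Bases further upstream of the annotated gene starts were not searched. Absence from a window therefore does not mean absence from the promoter.

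Antioxidant enzymes clear oxygen radicals and haem. In the oxidative stress list 3 of 15 members rose, 0 fell and the median was 0.40, and 5 were called without 1–3 h replicate 2 or without 1–3 h replicate 7 and 6 without 1–3 h replicate 11. HMOX1 (ENSSSCG00000039745), which breaks down haem, lay between 9.63 and 281 CPM at 1–3 h (median 32.8) and between 3.18 and 6.32 CPM on day 14 (median 5.13), with no overlap and a log2 fold change of 3.50 ± 0.61 (SE, adjusted p = 0.0033). The highest value came from the fibrous 1–3 h library, and without the fibrous libraries the gene was still called (adjusted p = 0.0018). TXNRD1, thioredoxin reductase, and SRXN1, sulfiredoxin, rose by 1.57 ± 0.30 and 4.22 ± 0.97 (adjusted p = 0.0041 and 0.012). Of the 15 members 10 had a fold change above 0 and 5 below. GCLC, GCLM, SLC7A11 and NQO1 were not called, at log2 fold changes of 0.85, 0.22, −0.14 and −0.27.

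Regulators of apoptosis rose in 6 of 17 cases and fell in 0, with a median of 0.86, and 3 were called without day 14 replicate 4 or without day 14 replicate 9. GADD45A, induced by stress and DNA damage, lay between 14.6 and 154.4 CPM at 1–3 h (median 48.8) and between 7.04 and 30.2 CPM on day 14 (median 12.2) and rose by 2.07 ± 0.48 (SE, adjusted p = 0.012). The pseudokinases TRIB1 and TRIB3 rose by 2.40 ± 0.55 and 4.0 ± 1.05 (adjusted p = 0.011 and 0.025), and TRIB3 was lost with swine as a block (adjusted p = 0.054) and without the fibrous libraries (0.072), and in 4 of the 16 fits without a single library. BCL2L1, which protects mitochondria from apoptosis, rose by 1.10 ± 0.29 (SE, adjusted p = 0.027), with an adjusted p of 0.052 without the fibrous libraries, and was lost without day 14 replicate 9. CDKN1A, the cell cycle inhibitor p21, rose by 1.76 ± 0.51 (SE, adjusted p = 0.04).

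CASP10, an initiator caspase of death receptors, was among the genes with the smallest p. It lay between 45.1 and 203.5 CPM at 1–3 h (median 98.9) and between 20.7 and 63.5 CPM on day 14 (median 29.2), and 8 of the 9 libraries of 1–3 h exceeded the highest day 14 library, which was the fibrous one. The log2 fold change was 1.90 ± 0.31 (SE, adjusted p = 0.0027). ETS2 (ENSSSCG00000038948, chr13:202464341-202483534), a transcription factor downstream of growth factor signalling, lay between 91.1 and 296 CPM at 1–3 h (median 197.4) and between 38.9 and 64.3 CPM on day 14 (median 50.6) without overlap and rose by 1.75 ± 0.28 (SE, adjusted p = 0.0027). DGKD, a diacylglycerol kinase, RPS6KA3, a kinase downstream of ERK, and PGM2, a phosphoglucomutase, rose by 1.88 ± 0.31, 1.77 ± 0.31 and 1.79 ± 0.30.

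Secreted regulators were among them too. INHBB (ENSSSCG00000038610, chr15:30999994-31004405), a subunit of activin B, lay between 4.03 and 39.9 CPM at 1–3 h (median 13.6) and between 0.62 and 2.46 CPM on day 14 (median 1.40), without overlap, and rose by 3.44 ± 0.60 (SE, adjusted p = 0.0033). CRIM1, a membrane protein that binds bone morphogenetic proteins, lay between 206.4 and 1099 CPM at 1–3 h (median 499) and between 117.3 and 200.6 CPM on day 14 (median 157.8), also without overlap, and rose by 1.93 ± 0.33 (SE, adjusted p = 0.0033). In the list of TGF-beta, BMP and Wnt genes 2 of 29 rose and 1 fell, with a median of 0.24, and as higher 0 were called without day 14 replicate 9 and 4 without day 14 replicate 5. TGFB1 and SMAD3, its signalling factor, rose by 1.49 ± 0.39 and 1.34 ± 0.36 (adjusted p = 0.026 and 0.03), and the Wnt inhibitor SFRP1 fell by 2.38 ± 0.69 on the log2 scale. SFRP1 reached 797 CPM in the fibrous day 14 library, and without the fibrous libraries its adjusted p was 0.319, and it was lost in 10 of the 16 fits without a single library.

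Clock genes passed the test in both directions. BMAL1 is the activating arm of the circadian clock and switches on the repressors NR1D1 and NR1D2, which in turn hold BMAL1 down. BMAL1 (ENSSSCG00000013397) lay between 40.7 and 155.3 CPM at 1–3 h (median 84.5) and between 14.5 and 32.1 CPM on day 14 (median 24.0), with no overlap, and rose by 1.88 ± 0.28 (SE, adjusted p = 0.0027). Its median was 31.5 CPM at baseline, 36.9 CPM at 0–1 h and 67.7 CPM on day 2. CRY1, a repressor of the late phase of the cycle, lay between 29.0 and 141.01 CPM at 1–3 h (median 61.5) and between 16.7 and 35.6 CPM on day 14 (median 23.0) and rose by 1.45 ± 0.30 (SE, adjusted p = 0.0074).

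NR1D1 lay between 1.53 and 12.4 CPM at 1–3 h (median 5.04) and between 8.64 and 30.4 CPM on day 14 (median 12.1) and fell by 1.47 ± 0.35 on the log2 scale (adjusted p = 0.015). NR1D2 fell by 1.05 ± 0.29 (adjusted p = 0.031), and was lost with only the 1–3 h and day 14 libraries and without day 14 replicate 1, 2, 4, 8 or 9 or 1–3 h replicate 3. BHLHE41 (ENSSSCG00000028552, chr5:47687662-47692761), another repressor of clock targets, lay between 1.84 and 5.11 CPM at 1–3 h (median 2.102) and between 4.22 and 26.2 CPM on day 14 (median 14.1), with 7 of the 9 libraries of 1–3 h below every day 14 library, and fell by 2.50 ± 0.43 (adjusted p = 0.0033). These were the 2 called higher and 3 called lower members of 16 tested clock genes (median −0.27), and as higher 4 were called without day 14 replicate 5. As lower, between 2 and 4 were called on leaving out a single library. PER1 and PER2, which light and glucocorticoids induce, did not pass, at −0.50 ± 0.37 (SE, adjusted p = 0.534) and 0.01 ± 0.40 (SE, adjusted p = 0.987), and DBP, an output of the clock, was at −1.17 ± 0.48 (SE, adjusted p = 0.164). BMAL2, a paralogue of BMAL1 outside the list and named after its values had been seen, rose by 3.03 ± 0.65 (SE, adjusted p = 0.008). The hour of each biopsy was not given in the labels, so the part of time of day cannot be told apart from that of infarction.

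Glucocorticoid-responsive genes passed in a few cases, with 2 of 10 higher and 0 lower (median 0.41). SGK1, a kinase that regulates sodium transport, lay between 27.1 and 146.1 CPM at 1–3 h (median 35.3) and between 6.08 and 22.1 CPM on day 14 (median 18.3) without overlap and rose by 1.68 ± 0.34 (SE, adjusted p = 0.0065). FKBP5, a chaperone of the glucocorticoid receptor, rose by 1.27 ± 0.30 (SE, adjusted p = 0.015). RGS2, which shortens signals of receptors such as that for angiotensin, lay between 5.70 and 61.0 CPM at 1–3 h (median 14.8) and between 1.58 and 4.69 CPM on day 14 (median 3.72), without overlap, and was the only called member of 18 adrenergic, angiotensin and natriuretic signalling genes, at 2.44 ± 0.51 (SE, adjusted p = 0.0072). The count was 2 without day 14 replicate 5, 1–3 h replicate 6 or 1–3 h replicate 7, and 3 without the fibrous libraries.

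Among the genes with the smallest p were factors that assemble ribosomes. DDX21 (ENSSSCG00000010247, chr14:72039985-72063778), an RNA helicase of the nucleolus, lay between 45.6 and 297 CPM at 1–3 h (median 135.9) and between 23.4 and 39.7 CPM on day 14 (median 31.6) without overlap and rose by 2.16 ± 0.36 (SE, adjusted p = 0.0027). GNL3, nucleostemin, lay between 10.5 and 67.8 CPM at 1–3 h (median 38.9) and between 4.86 and 10.7 CPM on day 14 (median 7.24) and rose by 2.11 ± 0.37 (SE, adjusted p = 0.0033). After these calls had been seen, all genes whose symbols begin with UTP, NOP, RRP or POLR1 and a number or letter were counted: 13 of 33 rose and 0 fell, all 33 had a fold change above 0, and the median was 0.88. UTP4, POLR1C, NOP56 and NOP2 led them, with log2 fold changes of 1.63 ± 0.29, 1.88 ± 0.36, 1.83 ± 0.41 and 1.75 ± 0.36. With swine as a block and without the fibrous libraries 8 and 8 were called, and 6 were called without day 14 replicate 8 or without day 14 replicate 9 and 7 without 1–3 h replicate 6. With counts summed per swine 0 were called.

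By contrast, the proteins of the cytosolic ribosome itself, counted in the same way by the symbols RPL and RPS, gave 0 called genes of 44 by edgeR (1 at an unadjusted p under 0.05) and 1 by DESeq2, and their median was 0.07. Of the translation factors and growth genes named after their values had been seen, EIF4E, which binds the mRNA cap, rose by 1.79 ± 0.43 (SE, adjusted p = 0.015), the helicase EIF4A1 by 1.54 ± 0.32 (SE, adjusted p = 0.0071), and ODC1, the first enzyme of polyamine synthesis, by 1.96 ± 0.48 (SE, adjusted p = 0.018). The E-box CACGTG, a palindrome bound by MYC and by BMAL1 with CLOCK, occurred in the promoter windows of 11.2% of the 465 called higher genes and 8.53% of the 293 called lower genes with a window, against 7.21% of the 11856 tested genes with a window. The AP-1 word TGANTCA, a palindrome, occurred in 3.87, 2.05 and 4.29% of the same 3 sets, and the CRE word TGACGTCA, also a palindrome, in 2.8, 1.37 and 2.13%. These shares are descriptions and carry no test.

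The genes that fell had a smaller median fold change than those that rose. MXD4 (ENSSSCG00000008687, chr8:1203163-1216807), which competes with MYC for its partner MAX, lay between 9.92 and 20.6 CPM at 1–3 h (median 12.1) and between 21.9 and 73.3 CPM on day 14 (median 41.2), with no overlap, and fell by 1.52 ± 0.23 on the log2 scale (adjusted p = 0.0027). PIK3IP1, an inhibitor of PI3 kinase, lay between 6.87 and 26.0 CPM at 1–3 h (median 11.3) and between 25.3 and 56.6 CPM on day 14 (median 38.8) and fell by 1.59 ± 0.25 (adjusted p = 0.0027). WIPI1, which helps to form autophagosomes, lay between 11.01 and 31.7 CPM at 1–3 h (median 19.3) and between 37.5 and 67.5 CPM on day 14 (median 51.0), with no overlap, and fell by 1.43 ± 0.23 (adjusted p = 0.0027). ZNF862, MSANTD4 and ZDHHC8, a palmitoyltransferase, were also among the 10 with the smallest p, at −0.98 ± 0.16, −1.16 ± 0.20 and −1.54 ± 0.27.

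SLC40A1 (ENSSSCG00000027157, chr15:94140635-94161793), ferroportin, the exporter of cellular iron, lay between 11.5 and 49.7 CPM at 1–3 h (median 19.2) and between 46.9 and 93.5 CPM on day 14 (median 75.9) and fell by 1.52 ± 0.27 (adjusted p = 0.0034). IGF1 (ENSSSCG00000000857, chr5:81762027-81909253), a growth factor made by fibroblasts and macrophages, lay between 11.2 and 55.4 CPM at 1–3 h (median 22.8) and between 41.8 and 229 CPM on day 14 (median 99.2) and fell by 1.86 ± 0.35 (adjusted p = 0.004). IGF1 and the genes given next were named after their values had been seen. SESN1, SESN3, DDB2, TP53INP1, XPC and BMF, which act in growth restraint, DNA repair, autophagy and apoptosis, all fell, by 0.75 (XPC) to 1.67 (SESN3) on the log2 scale. DDB2, which recognises ultraviolet damage, lay between 2.75 and 16.7 CPM at 1–3 h (median 7.38) and between 15.4 and 38.5 CPM on day 14 (median 23.6). The p53 targets GADD45A and CDKN1A were higher at 1–3 h, as given with the apoptosis genes. ALDH2, the mitochondrial aldehyde dehydrogenase, lay between 5.70 and 11.06 CPM at 1–3 h (median 8.70) and between 12.5 and 28.6 CPM on day 14 (median 21.0), without overlap, and fell by 1.28 ± 0.24 (adjusted p = 0.004).

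ADAMTSL2, a matrix protein that binds latent TGF-beta binding proteins, had the largest fall of the 10 named genes with the smallest p. It lay between 3.55 and 21.1 CPM at 1–3 h (median 7.32) and between 16.8 and 290.1 CPM on day 14 (median 25.1), the top day 14 value being the fibrous library, and fell by 2.81 ± 0.50 (adjusted p = 0.0034). Without the fibrous libraries its log2 fold change was −1.46 (adjusted p = 0.01). CCN3, a matricellular protein, and TBX18, a transcription factor of the epicardium, both named after their values had been seen, were called lower with the fibrous libraries and not without them (adjusted p = 0.358 and 0.052). IL17B, a member of the interleukin 17 family named in the same way, fell by 1.28 ± 0.23 on the log2 scale.

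Primary cilia are single antennae of non-dividing cells such as fibroblasts and pass on Hedgehog signals. BBS1, a subunit of the complex that carries receptors into the cilium, lay between 6.06 and 17.3 CPM at 1–3 h (median 8.85) and between 14.2 and 31.4 CPM on day 14 (median 22.1) and fell by 1.31 ± 0.22 (adjusted p = 0.0033). Counted after this call had been seen, genes whose symbols begin with IFT or BBS and a number included 8 called lower and 0 called higher of 22, with a median of −0.74. BBS1 itself is one of the 8, and over all genes tested 2.09% were called lower. Of the group 5 were called without day 14 replicate 8 or without day 14 replicate 9. With only the 1–3 h and day 14 libraries 4 were called, and with counts summed per swine 0. IFT80 lay between 11.02 and 27.8 CPM at 1–3 h (median 20.5) and between 31.6 and 44.8 CPM on day 14 (median 37.8), and IFT46 between 0.946 and 10.1 CPM at 1–3 h (median 7.17) and between 10.6 and 24.2 CPM on day 14 (median 15.4), both without overlap. SUFU, which restrains Hedgehog signalling, and MKS1, of the base of the cilium, were named after their values had been seen and were called lower, at −0.94 ± 0.21 and −1.56 ± 0.42. MKS1 was lost without the fibrous libraries (adjusted p = 0.082).

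**Figure D3:**
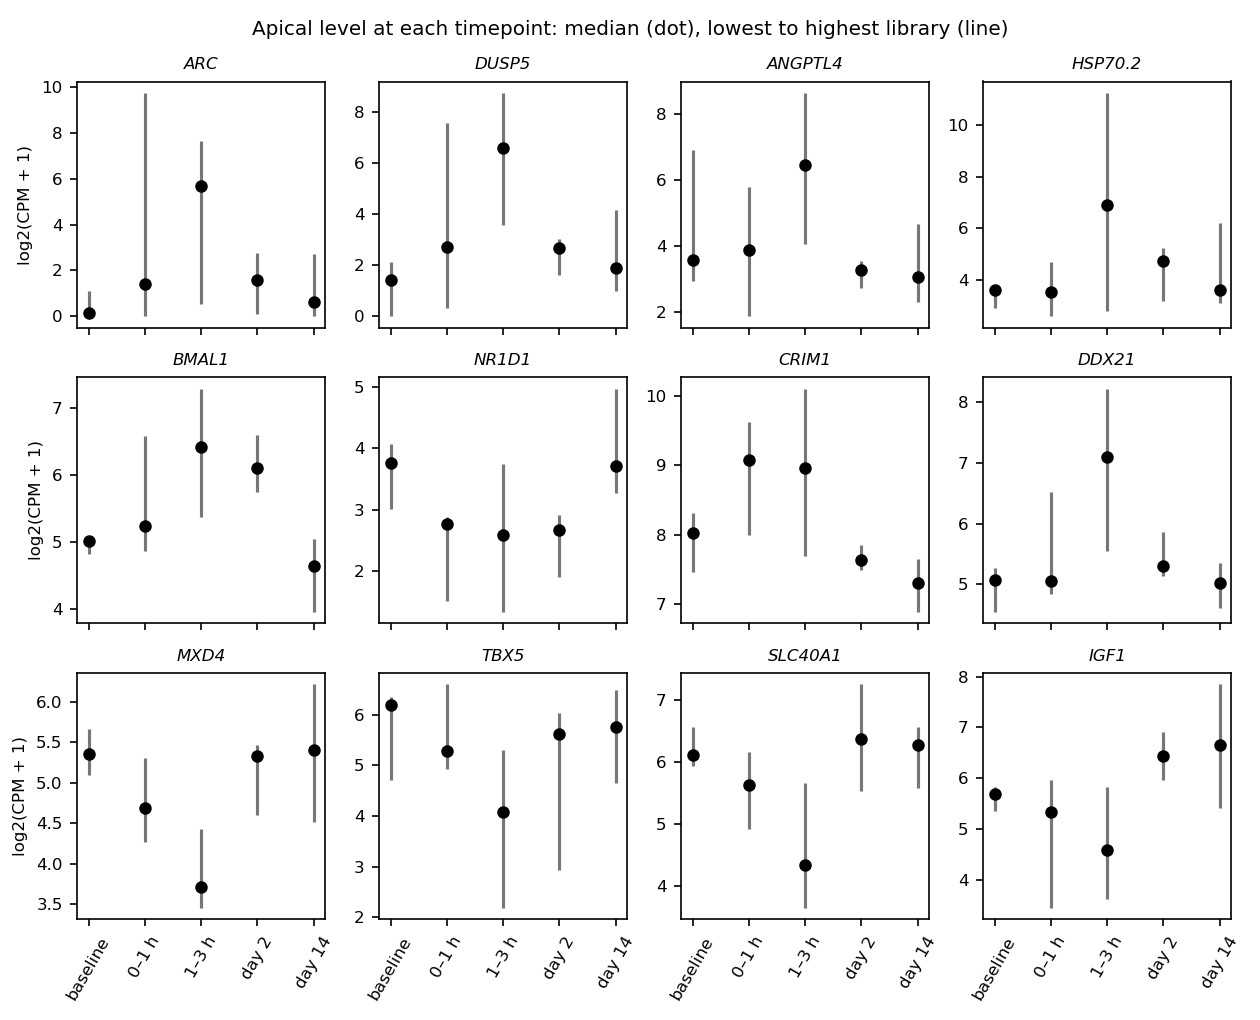
Apical level (vertical axes, log2 of CPM plus 1) of 12 genes at baseline (4 libraries), 0–1 h (5), 1–3 h (9), day 2 (4) and day 14 (7), with a dot at the median and a line from the lowest to the highest library. ARC and ANGPTL4 peak at 1–3 h, MXD4 has its lowest median there, and BMAL1 has its second highest median on day 2.

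Libraries labelled apical were also available from baseline, 0–1 h and day 2. The baseline biopsies, by the study's methods, had not been aimed at a particular region of the heart. Relative to day 14, the called higher genes had a median difference of mean log2 CPM of 0.07 at baseline, 0.34 at 0–1 h, 1.24 at 1–3 h and 0.19 on day 2. For the called lower genes the values were −0.02, −0.24, −1.04 and −0.19. The genes were chosen by the 1–3 h and day 14 libraries, so those values carry no test. The baseline, 0–1 h and day 2 levels come from libraries outside the contrast, but all differences share the day 14 libraries. PDK4 had medians of 33.5 CPM at baseline, 52.7 at 0–1 h, 806 at 1–3 h, 19.6 on day 2 and 25.6 on day 14. IGF1 had 50.3, 39.2, 22.8, 85.3 and 99.2 CPM in the same order. CRIM1 had 259.9, 538, 499, 199.00 and 157.8 CPM.

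The genes of contraction gave few calls. For 21 sarcomere genes, of which edgeR called 0 (1 at an unadjusted p under 0.05) and DESeq2 1, the median was −0.27, with FLNC, a Z-disc crosslinker, at medians of 4745 and 1287 CPM and 2.29 ± 0.73 (SE, adjusted p = 0.063), and NEBL, nebulette, at −1.15 ± 0.73 (SE, adjusted p = 0.43). For 22 genes of calcium handling, ion channels and gap junctions, of which edgeR called 0 (3 at an unadjusted p under 0.05) and DESeq2 1, the median was −0.33, KCNIP2, a subunit of the transient outward potassium channel, lying at medians of 18.9 and 53.9 CPM and −1.49 ± 0.50 (SE, adjusted p = 0.081). ADRA1A, the alpha-1A adrenoceptor, was at −1.32 ± 0.60 (SE, adjusted p = 0.218). Among 13 cardiac transcription factors TBX5, which patterns the left ventricle, lay between 3.54 and 38.4 CPM at 1–3 h (median 15.98) and between 24.1 and 88.0 CPM on day 14 (median 53.2) and fell by 1.69 ± 0.41 (adjusted p = 0.017). No other member was called by edgeR (median −0.45), and TBX5 itself was lost without day 14 replicate 4. Without the fibrous libraries 4 of these factors, 3 channel and calcium genes and 1 sarcomere gene were called lower, and 1 sarcomere gene higher.

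Heart muscle draws its energy mainly from fat. In 28 fatty acid oxidation genes the median was −0.21, with SLC25A20 and CPT2, of the carnitine shuttle, at −0.63 ± 0.27 (SE, adjusted p = 0.191) and −0.51 ± 0.26 (SE, adjusted p = 0.294). In 26 nuclear-encoded genes of oxidative phosphorylation it was −0.31, only 1 had a fold change above 0, and NDUFB8 and SDHC were at −0.65 ± 0.41 (SE, adjusted p = 0.435) and −0.60 ± 0.40 (SE, adjusted p = 0.456). Neither edgeR nor DESeq2 called a member of either list, and 1 and 0 members had an unadjusted p under 0.05. Of 26 genes of the Krebs cycle and branched-chain amino acid breakdown, MCCC2, a leucine-degrading enzyme, fell by 0.88 ± 0.24 (adjusted p = 0.029) and was the only call (median −0.26), a count that was 0 in 5 of the 16 fits without a single library and 2 without day 14 replicate 5. The 13 mitochondrially encoded genes all had fold changes above 0, with a median of 0.47. Of these 0 were called by edgeR or DESeq2 and 0 had an unadjusted p under 0.05, ND1 lying at 0.60 ± 0.42 (SE, adjusted p = 0.488) and COX3 at 0.59 ± 0.43 (SE, adjusted p = 0.51).

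Of 13 wall stress and fetal genes 2 rose and 0 fell (median 0.35), and 0 passed in 6 of the 16 fits without a single library. HBEGF, a growth factor shed from stretched and injured cells, lay between 10.7 and 171.9 CPM at 1–3 h (median 59.0) and between 4.22 and 34.0 CPM on day 14 (median 10.4) and rose by 2.40 ± 0.66 (SE, adjusted p = 0.032), and MYH9, non-muscle myosin, rose by 1.29 ± 0.38 (SE, adjusted p = 0.044) but missed the threshold with swine as a block (adjusted p = 0.055), by limma-voom and with only the 1–3 h and day 14 libraries. HBEGF was lost in 7 and MYH9 in 9 of the 16 fits. NPPB, the gene of B-type natriuretic peptide, had medians of 14.7 and 61.6 CPM and a log2 fold change of −1.49 ± 1.17 (SE, adjusted p = 0.561). With counts summed per swine its fold change was −1.91 (adjusted p = 0.039). Its baseline median was 1.88 CPM.

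Collagens and their crosslinking enzymes build the scar. Of 40 matrix and crosslinking genes 0 were called by edgeR (8 at an unadjusted p under 0.05) and 2, both lower, by DESeq2, and the median was −0.35. COL1A1 lay between 282 and 45626 CPM at 1–3 h (median 1891) and between 894 and 38385 CPM on day 14 (median 2662), and COL3A1 had a log2 fold change of −0.40 ± 0.72 (SE, adjusted p = 0.81). FMOD and CILP, matrix proteins of scars and cartilage, were at −1.98 ± 0.78 (SE, adjusted p = 0.139) and −1.41 ± 0.56 (SE, adjusted p = 0.146). The range of COL1A1 within each timepoint, set at its top by the fibrous libraries, exceeded the difference of the medians. Of the matrix proteases and inhibitors 2 of 13 rose (median 1.04; 4 without day 14 replicate 5 or without 1–3 h replicate 7, 1 in 5 other fits), ADAMTS1, an aggrecan-cleaving protease whose call was lost in 5 of the 16 fits without a single library, by 1.82 ± 0.50 (SE, adjusted p = 0.031) and ADAM17, which sheds TNF and HBEGF, by 1.04 ± 0.25 (SE, adjusted p = 0.017).

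Vessel and immune cell genes gave few calls. CLDN5, of endothelial tight junctions, lay between 4.19 and 64.5 CPM at 1–3 h (median 27.3) and between 1.24 and 10.1 CPM on day 14 (median 6.87) and was the only called member of 20 endothelial and angiogenic genes, at 2.28 ± 0.53 (SE, adjusted p = 0.013). Without the fibrous libraries 8 members were called higher, and 2 were called without 1–3 h replicate 2 or without 1–3 h replicate 11, 3 without day 14 replicate 1 or without day 14 replicate 5, 4 without 1–3 h replicate 7 and 7 without 1–3 h replicate 6. No member was called by edgeR or DESeq2 among 12 smooth muscle and pericyte genes, 10 lymphocyte genes, 7 genes of MHC class II and 4 red cell and platelet genes, of which 0, 0, 0 and 2 had an unadjusted p under 0.05. MYLK, the kinase that starts smooth muscle contraction, was at −0.80 ± 0.44 (SE, adjusted p = 0.338), and PDGFRB, a receptor of pericytes, at 0.54 ± 0.30 (SE, adjusted p = 0.334). NKG7, of cytotoxic lymphocytes, was at −0.98 ± 0.48 (SE, adjusted p = 0.258), and IL7R, of T cells, at 1.16 ± 0.68 (SE, adjusted p = 0.373). SLA-DMB and SLA-DMA, which load peptides onto MHC class II, were at −0.68 ± 0.41 (SE, adjusted p = 0.402) and −0.49 ± 0.33 (SE, adjusted p = 0.47). SLC4A1, the anion exchanger of red cells, was at 1.91 ± 0.71 (SE, adjusted p = 0.113), and PPBP, a platelet chemokine, at 2.1 ± 0.96 (SE, adjusted p = 0.217).

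Among 12 interferon-stimulated genes IFI44L was at −1.08 ± 0.34 (SE, adjusted p = 0.057) and IFI6 at −1.13 ± 0.49 (SE, adjusted p = 0.193), and among 10 complement genes C7 was at −1.97 ± 0.67 (SE, adjusted p = 0.08) and CFB at 2.13 ± 0.91 (SE, adjusted p = 0.183). Of each list 0 were called by edgeR and 2 had an unadjusted p under 0.05, and both DESeq2 and the fit with swine as a block called 1 gene lower. For protein breakdown and autophagy, ULK1, a kinase that starts autophagy, was at −0.48 ± 0.20 (SE, adjusted p = 0.179), with 0 of 15 members called by edgeR (3 at an unadjusted p under 0.05) and 1 by DESeq2. Of 17 cell cycle genes AURKB, a mitotic kinase, fell by 1.04 ± 0.31 (adjusted p = 0.045), a call that was lost in 12 of the 16 fits without a single library. Of the 38 tested markers of 10 cell types 0 were called by edgeR.

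**Figure D4:**
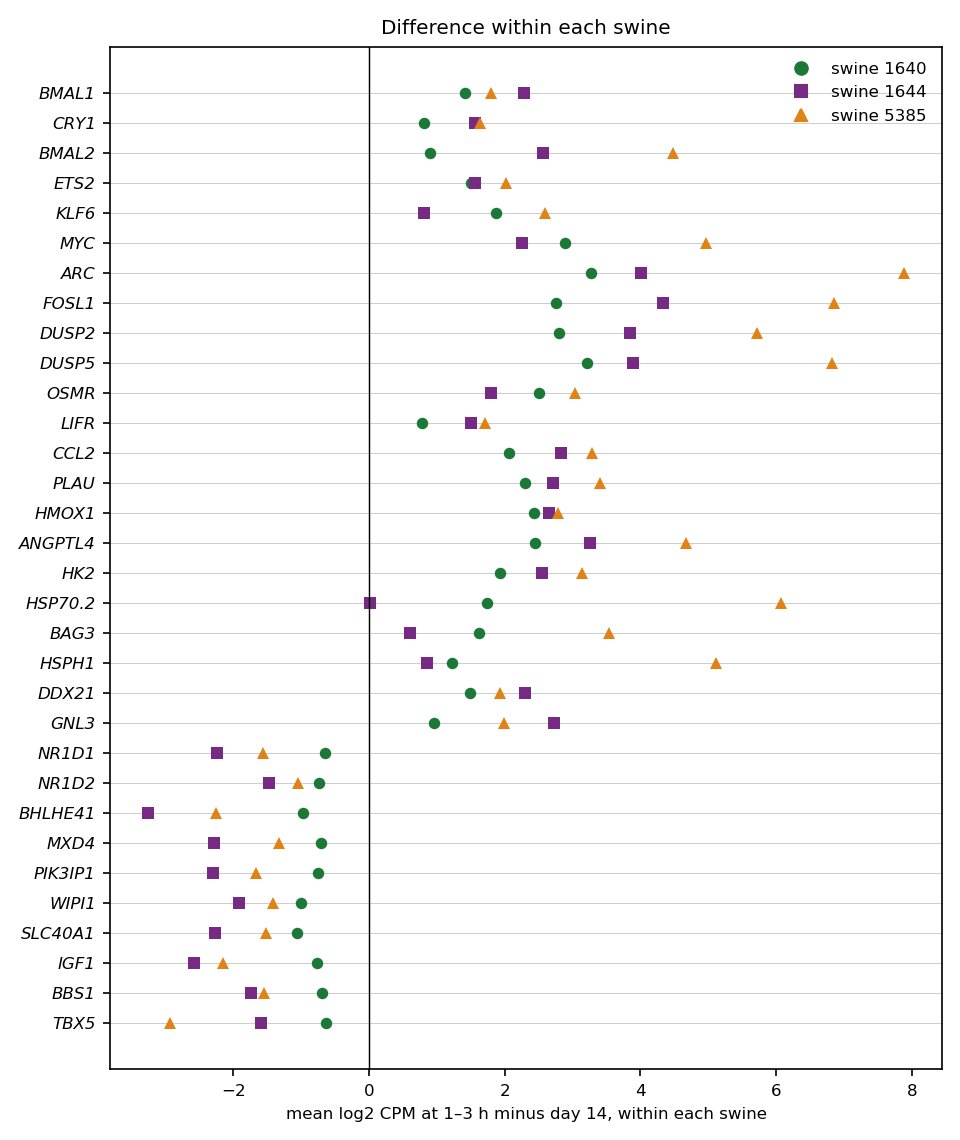
Difference of mean log2 CPM between 1–3 h and day 14 (horizontal axis) of 32 genes within each swine, given by colour and symbol. The HSP70.2 value of swine 5385 is 6.06 and that of swine 1644 is 0.01, while the 3 swine lie between 2.43 and 2.79 for HMOX1.

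Each swine was followed from 1–3 h to day 14, so each offers a comparison within 1 animal. Of the 557 called higher genes 545 were higher at 1–3 h in all 3 swine, and of the 374 called lower genes 358 were lower in all 3. The median difference of the called higher genes was 0.78 in swine 1640, 1.35 in swine 1644 and 1.6 in swine 5385, and that of the called lower genes −0.53, −1.29 and −1.20. For the immediate early list the medians were 2.20, 0.81 and 2.59, the lowest being from the animal with the fibrous libraries. The ribosome assembly symbols had 0.33, 1.29 and 0.60. Differences between the animals were not tested. With the counts summed per swine, the called genes included PLIN2, HMOX1, INHBB, ANGPTL4, PHLDA2, DUSP2, CCL2, HK2, PLAU, PDK4, ARC, DDX21 and BMAL1, the last with an adjusted p of 0.044.

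**Figure D5:**
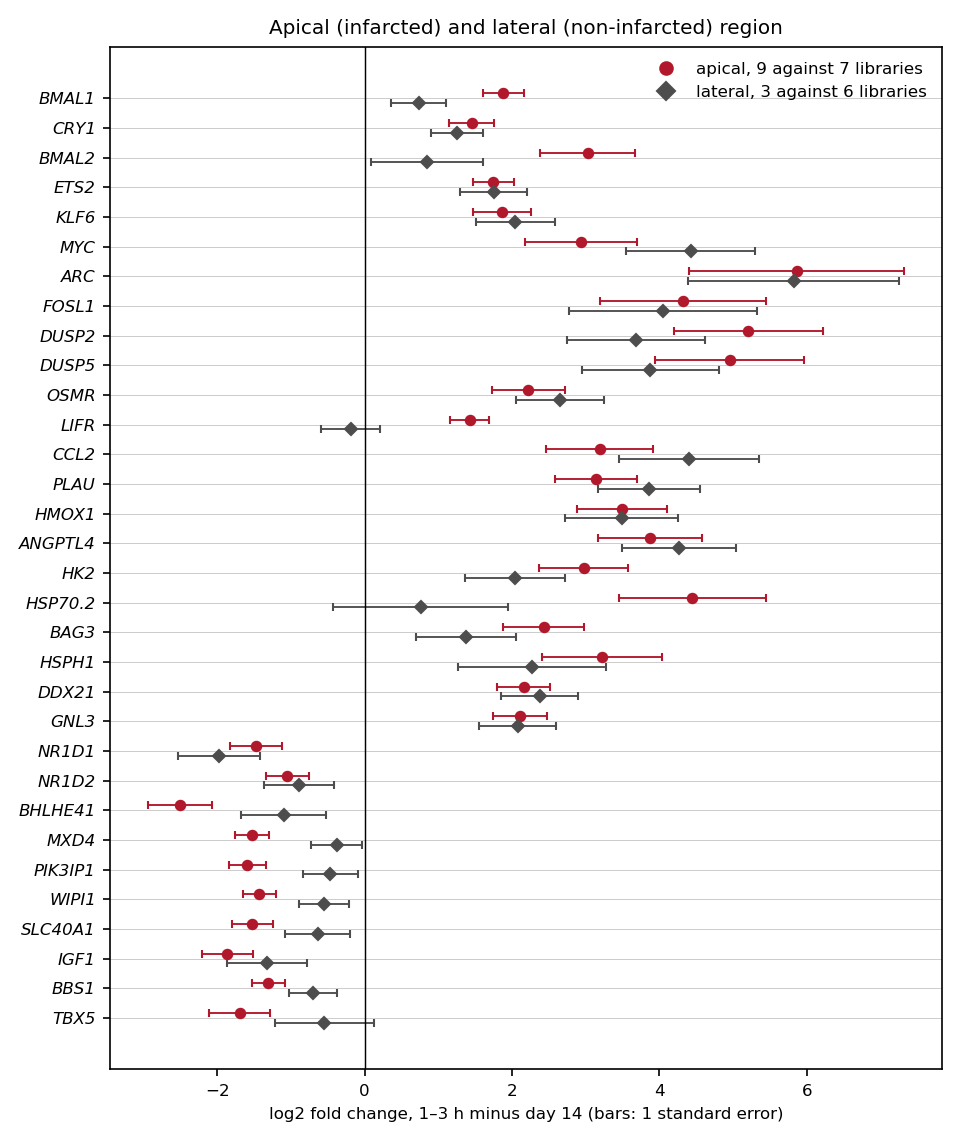
Log2 fold change from day 14 to 1–3 h (horizontal axis) of 32 genes in the apical region (red circles, 9 against 7 libraries) and in the lateral region (grey diamonds, 3 against 6 libraries), with bars of 1 standard error. ARC and ANGPTL4 are high in both, while LIFR is 1.42 in the apical and −0.19 in the lateral region.

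The lateral, non-infarcted region was sampled at the same timepoints, with 3 libraries of 1–3 h, from swine 1644 and 5385, and 6 of day 14. In the paper, some samples of this region, all of the same animal, grouped with infarcted-region samples of 1–3 h. The paper holds inaccurate sampling to be the most likely reason. The labels do not identify those samples, so lateral values here need not be those of muscle without infarction. In a fit of both regions 0 of 19395 genes (0%) had a difference between the regions in this contrast by edgeR, with 748 at an unadjusted p under 0.05 and a smallest adjusted p of 0.712, and DESeq2 called 3. The lateral contrast alone called 15 genes (0.0773%), all higher at 1–3 h, and 10 of them were called higher in the apical region. They included PLAU, ADAMTS1, PHLDA2, ANGPTL4, TRIB1, DUSP1 and MYC, and, without an apical call, SPP1, S1PR3, HSD17B7, CEBPD and BCL3. Of the 557 genes called higher in the apical region 532 (95.5%) were also higher in the lateral region, against 40.6% of all genes tested. Of the called lower genes 300 (80.2%) were lower there, against 59.4%.

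The size of the lateral differences varied by group. The called higher genes had a median lateral log2 fold change of 1.05, and the called lower genes of −0.25, close to −0.19 over all genes. The immediate early list had a lateral median of 2.83, against 1.36 in the apical region, and MYC, at 4.42 ± 0.87, and FOS, at 4.67, were large there. LIFR was at −0.19 ± 0.40, and its difference between the regions was 1.62 ± 0.50 (adjusted p = 0.756, edgeR). BMAL1 was at 0.73 ± 0.37, CRIM1 at 0.20 ± 0.52 and HSP70.2 at 0.76 ± 1.19. Of the 3 lateral libraries of 1–3 h, replicate 4 was fibrous, and its part in these values was not tested.

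Blood taken at the same timepoints gave other levels. In the blood libraries, 2 of 1–3 h and 5 of day 14, BMAL1 had medians of 114.1 and 151.6 CPM, ANGPTL4 of 25.6 and 21.5 CPM, PLAU of 2.45 and 2.88 CPM, and HMOX1 of 11.3 and 12.7 CPM, here without scaling beyond the library total. BMAL1 was thus higher in blood on day 14 than at 1–3 h, the reverse of the apical order, without a test. PDK4 had 0.843 and 0.179 CPM and DUSP5 31.6 and 31.1 CPM.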

How the data were processed

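The authors sequenced RNA of micro-EMB and blood with a stranded total RNA kit, mapped the reads to Sscrofa11.1 with STAR, counted them per Ensembl gene with featureCounts without regard to strand, and deposited raw counts of 31907 genes in 85 libraries; overlapping and antisense genes are therefore uncertain. Symbols paired with 15029 identifiers were used.

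Libraries were grouped by the labels for region, timepoint and swine. The 29 apical libraries with a total count of at least 1000000 and 7 to 60% of counts in their 10 most counted genes were fitted with edgeR 4.0.16 in R 4.3.3 (TMM, quasi-likelihood test, timepoint as the only term, contrast 1–3 h minus day 14), over 17929 genes that reached 1 CPM in 20% or more of these libraries. Called means an adjusted p (Benjamini-Hochberg) of 0.05 or less. Every log2 fold change, SE and adjusted p comes from this fit unless stated, and tests were tried on simulated data. The simulated libraries held no difference between swine, so that trial does not cover biopsies that share an animal. The biological coefficient of variation was 0.664. Fibrous libraries are those above 25 on component 2 of a PCA of 500 genes, a choice made after the data had been seen. Lateral values come from a fit of 25 libraries of both regions at both timepoints. P-values over libraries treat biopsies of an animal as separate samples and so rest on the spread between biopsies. Swine pair the timepoints, since the labels give the animal (correlations of same-swine deviations 0.398, 0.516 and 0.656), and the fit with swine as a block is given where it changes a call.

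The comparison, the 34 gene lists and the tests were chosen with earlier results of these data known. Named genes were the 10 with the smallest p in each direction among called genes with a symbol and the same direction in all 3 swine, up to 4 called members a list in each direction, up to 2 members of lists without a call, and cell type markers; other genes are named from the lists or after their values were seen. No set test was run. Alternatives were DESeq2 1.42.0, limma-voom 3.58.1, other scaling and filters, a swine block, sums per swine and left-out libraries. Promoters and gene positions are RefSeq, Sscrofa11.1. Some named genes are not reported here. The reads were not analysed here.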

Additional observations from a re-analysis of the deposited data

Results flagged for a closer look

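A check covered 40 groups of 7 or 9 libraries, the 20 genes with the smallest p at both timepoints. In 2 groups a library lay far from the others, about the number that chance alone gives, at about 1 in 20. In both it was day 14 replicate 5 of swine 1644, a fibrous library. CASP10 stood at a log2 CPM of 5.99 there, against 4.92 in the next library, and ADAMTSL2 at 8.18 against 5.64. The distance was 0.67 and 0.621 of the range of the 7 day 14 libraries, above the critical value of 0.568. Without the fibrous libraries CASP10 was called higher (adjusted p = 0.00059) and ADAMTSL2 lower (adjusted p = 0.01).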

How the results depend on the processing

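The 931 calls (557 higher; 2.09% of genes tested were lower and 12% of list members were called) became 1956 (1276; 3.79% and 20.9%) by DESeq2, 1415 (834; 3.21% and 22.6%) without the fibrous libraries, 1521 (926; 3.57% and 15.3%) without libraries with many detected genes, an alternative added after the data were seen, 541 (396; 0.804% and 10.3%) with only the 1–3 h and day 14 libraries, 69 (63; 0.0266% and 2.23%) with all apical libraries as sequenced, and 37 (35; 0.0111% and 2.58%) with counts summed per swine and swine as replicate block. Swine as replicate block alone gave 863 (521; 1.91% and 13.2%). The share called lower was 1.31% without TMM and 1.03% without a filter on low counts. Of all calls 59.8% were higher, 49.7% by limma-voom (794 calls), 71.4% with DESeq2 size factors in edgeR (1083 calls) and 73.2% with only the 2 groups, and the median of all genes moved from 0.09 to −0.05 by limma-voom and 0.16 with those size factors. Leaving out a swine gave 0 to 607 calls (0 to 390; 0 to 1.27% and 0 to 10.5%), with 356 (279; 0.441%) without swine 1644 and 0 without swine 5385, also when the fibrous libraries were left out too (1055 genes at an unadjusted p under 0.05 by edgeR). Leaving out a single library gave 454 to 1385 calls (292 to 870; 0.904 to 2.94% and 6.86 to 18.5%), 454 without day 14 replicate 9, 587 without day 14 replicate 8, 616 without day 14 replicate 4 and 1385 without 1–3 h replicate 11. The difference between regions gave 0 calls with swine as replicate block (566 genes at an unadjusted p under 0.05 by edgeR), 3 by DESeq2, and 0 to 1 on leaving out a lateral 1–3 h library. Of 71 called named genes the block lost TRIB3, HSPH1 and MYH9, and 12 held when summed per swine. By limma-voom ARC, SERPINB2, TRIB3, HSP70.2, MYH9, MCCC2, SFRP1, CLDN5 and MERTK were lost. With only the 1–3 h and day 14 libraries BCL2L1, CHORDC1, HSPH1, FKBP5, NR1D2, MYH9, SMAD3, SFRP1 and AURKB were lost. None of the 71 changed sign. MYLK, not called, turned from −0.80 to 0.17 without the fibrous libraries, 0.071 without swine 1644, 0.073 without day 14 replicate 5 and 0.051 without swine 5385 and the fibrous libraries, and lay between −1.23 (without swine 5385) and 0.073 on leaving out a swine or library. The causes were not tested. With 3 animals and a spread between biopsies this wide, small differences were not detectable.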
